A study of Homo sapiens with 9 samples.

Results

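The Schlafen genes SLFN5, SLFN11, SLFN12, SLFN12L and SLFN13 were examined in A431 cells, an epidermoid carcinoma line with endogenous mutant p53. These 5 genes, of 58051 in the table of counts, were listed by symbol, and the list was drawn up because SLFN11 was nearly absent in 1 of the 3 lines. RNA was sequenced from A431 parental cells (mutp53), A431 Ctrl cells (mutp53), which had received an empty-vector CRISPR construct, and A431 p53 KO cells, which had received a CRISPR construct against p53, with 3 libraries per line. The cells of all groups were untreated, were grown as single colonies and then in 6-well plates, and were harvested 48 h after settling. How many clones each line represents is not given in the sources used here, and neither is whether the 3 libraries of a line came from separate cultures, so that the p-values measure the spread between these libraries, which may be technical. The effect of p53 loss and differences between the clones cannot be told apart.

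Schlafen proteins are encoded by a cluster of related genes and share an N-terminal core domain that in several members cleaves RNA. Several of the genes are induced by type I interferon. SLFN11 is recruited to stalled replication forks, where it blocks replication, and it also cleaves transfer RNA. Cells that express it are known to be killed more readily by DNA-damaging drugs, and its loss in tumour lines has been tied to promoter methylation and to the histone methyltransferase EZH2. SLFN13 cleaves transfer and ribosomal RNA, SLFN12 is an RNase stabilised by compounds that join it to the phosphodiesterase PDE3A, and SLFN5 is a nuclear member that represses transcription of some genes.

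On GRCh38 the cluster spans chromosome 17 from 35243071 to 35560819, or 318 kb. SLFN5 (ENSG00000166750) lies on the plus strand at 35243071 to 35273655. The other members lie on the minus strand, SLFN11 (ENSG00000172716) at 35350305 to 35373701, SLFN12 (ENSG00000172123) at 35410922 to 35433283, SLFN13 (ENSG00000154760) at 35435096 to 35448837 and SLFN12L (ENSG00000205045) at 35464249 to 35537678. SLFN14, the last gene of the cluster, had 0 counts in every library and SLFNL1, a relative elsewhere in the genome, had 1 to 5.

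Promoter sequences are shown because methylation of CpG sites is a known route to loss of SLFN11. They are those of SLFN11, SLFN12 and SLFN12L, the members for which a promoter sequence was matched. Each is the RefSeq sequence on GRCh38.p14, minus strand, of 300 bases, with CpG sites in capitals. It runs from 250 before RefSeq's start of the gene to 50 from it. For SLFN11 and SLFN12 that start lies inside the span given above, not at its end. SLFN11 is at chr17:35373572-35373871, SLFN12 at chr17:35433125-35433424 and SLFN12L at chr17:35537629-35537928. SLFN5 and SLFN13 were not matched.
SLFN11: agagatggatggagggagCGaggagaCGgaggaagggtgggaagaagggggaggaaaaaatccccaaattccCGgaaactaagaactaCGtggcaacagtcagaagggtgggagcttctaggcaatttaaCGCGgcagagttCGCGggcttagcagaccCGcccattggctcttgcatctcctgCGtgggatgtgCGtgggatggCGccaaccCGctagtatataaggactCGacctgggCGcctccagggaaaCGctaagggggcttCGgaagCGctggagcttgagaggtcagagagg
SLFN12: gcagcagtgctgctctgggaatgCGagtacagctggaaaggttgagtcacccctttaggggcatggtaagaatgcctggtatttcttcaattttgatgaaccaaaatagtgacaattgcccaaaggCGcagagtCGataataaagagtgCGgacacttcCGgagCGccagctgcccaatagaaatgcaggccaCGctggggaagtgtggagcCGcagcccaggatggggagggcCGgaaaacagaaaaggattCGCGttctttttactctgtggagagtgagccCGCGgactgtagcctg
SLFN12L: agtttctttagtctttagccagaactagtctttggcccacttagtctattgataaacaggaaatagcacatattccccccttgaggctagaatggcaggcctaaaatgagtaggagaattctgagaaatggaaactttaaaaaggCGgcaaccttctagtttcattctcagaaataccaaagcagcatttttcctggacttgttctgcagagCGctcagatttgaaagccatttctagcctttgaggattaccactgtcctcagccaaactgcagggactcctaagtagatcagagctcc
The SLFN11 promoter held 18 CpG sites, the SLFN12 promoter 13 and the SLFN12L promoter 2, where the median of 35116 promoters was 14. As many CpG sites as SLFN11 were found in 44.5% of promoters, as many as SLFN12 in 51.7% and as many as SLFN12L in 89%. DNA methylation was not measured in these cells. Motifs were searched on both strands. The interferon-stimulated response element, GAAA and GAAA with any 2 bases between, was found once in the SLFN12L promoter and in 3.57% of all promoters, and not in those of SLFN11 and SLFN12. The gamma-activated sequence TTCNNNGAA had 1 match in SLFN11 and 2 in SLFN12L, against 7.66% of all promoters with a match. The ETS core CCGGAA had 1 match in SLFN11, which overlapped its gamma-activated sequence, and 2 in SLFN12, against 17.2% of promoters. The SLFN12L match of the response element overlapped 1 of its gamma-activated sequences. The exact letters TATAAA were found in none of the 3 and in 11.5% of promoters. Other forms of the TATA box were not searched, and the SLFN11 promoter holds the related stretch TATATAAG. The p53 decamer, searched by its name, had 2 matches in SLFN12L, none in SLFN11 and SLFN12, and a match in 6.63% of promoters.

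Library totals ranged from 19783778 to 29840452 counts. CPM are counts per 1000000 of the normalised library size, and fold changes, standard errors (SE) and p-values come from the quasi-likelihood test of edgeR, the p-values adjusted by Benjamini-Hochberg over 14513 genes. A gene was called at an adjusted p of at most 0.05. Ctrl replicate 1 stood apart from its group. Its genes with at least 7637 exon bases differed from the other Ctrl libraries by a median of -0.24 on the log2 scale and its genes of at most 2735 bases by 0.24, whereas in the other libraries these medians lay between -0.12 and 0.16 and between -0.15 and 0.13. SLFN5, SLFN12L and SLFN13 are among the longer genes. The values of SLFN5 and SLFN11 and the counts in gene lists are therefore also given without that library. SLFN12L was not fitted without it. Of the keratinocyte markers, KRT14 was near absent, with 0 to 13 counts per library, and the 6 markers did not move together. Their summed level was 15234 to 18209 CPM in parental, 9727 to 12031 in Ctrl cells and 14064 to 14774 in p53 KO cells, of which EGFR alone made up 15900, 10116 and 13501 CPM on average. In Ctrl against parental cells EGFR (-0.65) and KRT6A (-0.40) were lower, KRT5 was higher (0.45), and CDH1 (0.01) and TP63 (-0.07) were not called. The 6 leukocyte markers summed to 0.923 to 1.34, 1.30 to 1.86 and 2.09 to 2.99 CPM, with PTPRC and CD3E at 0 in every library. The 6 fibroblast markers summed to 3.92 to 4.36, 2.71 to 3.82 and 2.33 to 3.52 CPM, with COL3A1, PDGFRA, DCN and LUM at 0 in every library. The part of these marker differences in the results was not tested.

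SLFN11 RNA was at a middling level in parental and p53 KO cells, where 42% and 44.9% of 14397 genes lay below it per exon length, and nearly absent in Ctrl cells, where 1.72% did. The 3 parental libraries held 437, 456 and 387 counts of SLFN11, the Ctrl libraries 2, 13 and 8, and the p53 KO libraries 625, 563 and 341. Every Ctrl library thus lay far below every library of the other lines. As levels these were 17.4 ± 0.587 CPM (SD, n = 3) in parental, 0.288 ± 0.178 in Ctrl cells and 19.8 ± 2.48 in p53 KO cells. The fitted level in Ctrl cells was 55.5-fold lower than in parental cells and 63.3-fold lower than in p53 KO cells, on the log2 scale -5.79 (SE 0.23) for Ctrl against parental and 5.98 (SE 0.23) for p53 KO against Ctrl. These values chose the gene and are given as a description with no test. From the summed counts, 1280 in parental, 1529 in p53 KO and 23 in Ctrl cells, the ratio to Ctrl scaled to depth was 56.0 for parental and 64.8 for p53 KO cells. Without Ctrl replicate 1 the log2 values were -5.48 and 5.67. In bulk RNA, fewer cells with SLFN11 RNA and less of it per cell cannot be told apart.
The comparison that did not choose the gene was p53 KO against parental, lines that differ in mutant p53 and may also differ by clone. The parental libraries lay at 16.7, 17.5 and 17.9 CPM and the p53 KO libraries at 21.0, 21.4 and 16.9, so the groups overlapped. The log2 fold change was 0.19 (SE 0.13, 95% interval -0.07 to 0.45, adjusted p = 0.362), and a change of that size was not separated from the spread of the libraries. In order of level, p53 KO came before parental without a difference beyond the spread, and Ctrl came last.

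**Figure D1:**
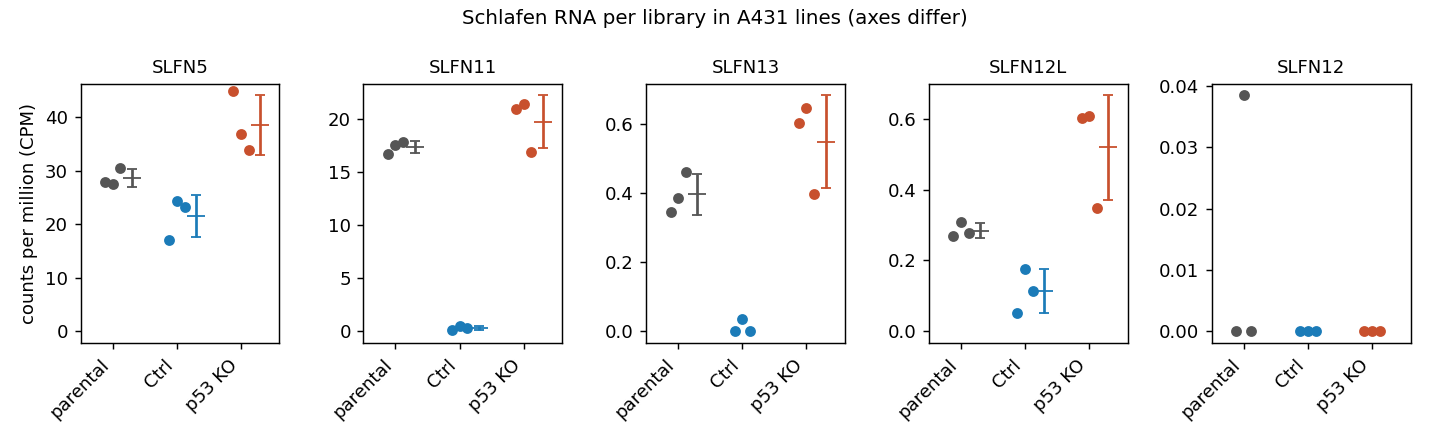
Levels of the 5 Schlafen genes in CPM (vertical axis, with a scale of its own in each panel) in the 3 libraries of each A431 line (points); bars are the mean ± SD of 3 libraries and are left out where no library of the group held more than 1 count. SLFN11 and SLFN13 are near 0 in the Ctrl libraries, SLFN5 is present in all 9, and SLFN12 has 1 count in all.

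SLFN5 was expressed in every line, at its highest in p53 KO and its lowest in Ctrl cells. Its counts were 727, 713 and 663 in parental, 334, 692 and 607 in Ctrl cells and 1338, 969 and 683 in p53 KO cells. Scaled to library size, these were 27.8, 27.4 and 30.6 CPM in parental (mean 28.6 ± 1.72, SD, n = 3), 17.03, 24.3 and 23.1 in Ctrl (21.5 ± 3.91), and 44.9, 36.9 and 33.9 in p53 KO cells (38.5 ± 5.69). No library of a line overlapped those of another line. SLFN5 was 1.79-fold higher in p53 KO than in Ctrl cells (log2 fold change 0.84, SE 0.14, adjusted p = 0.00104), and without Ctrl replicate 1 the log2 fold change was 0.70 (adjusted p = 0.000156).
Against parental cells neither difference passed the threshold. SLFN5 differed by a log2 fold change of 0.43 in p53 KO cells (SE 0.14, adjusted p = 0.0532) and of -0.41 in Ctrl cells (SE 0.14, adjusted p = 0.0636). Without Ctrl replicate 1 the first passed (log2 fold change 0.43, adjusted p = 0.0032) and the second did not (-0.27, adjusted p = 0.0978). With DESeq2 both passed, at adjusted p = 0.0315 and 0.0372. In simulated data a larger share of calls was false with DESeq2 (10.6 to 15.7%) than with edgeR (5.39 to 5.83%).

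SLFN13 was low in every line and at the limit of detection in Ctrl cells. The counts were 9, 10 and 10 in parental, 0, 1 and 0 in Ctrl cells and 18, 17 and 8 in p53 KO cells, so the Ctrl libraries lay below all others. Its level was 0.397 ± 0.0595 CPM (SD, n = 3) in parental and 0.549 ± 0.134 in p53 KO cells. Against a floor of 3 counts in each Ctrl library, SLFN13 in parental cells was at least 3.20-fold higher than in Ctrl cells, and in p53 KO cells at least 4.42-fold higher. No test against Ctrl cells is given, because the gene passed the filter on low counts only through the lines where it was higher. Parental and p53 KO cells overlapped, with a log2 fold change of 0.51 (SE 0.32, 95% interval -0.13 to 1.14, adjusted p = 0.315).

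SLFN12L and SLFN12 did not pass the filter on low counts. SLFN12L had 7, 8 and 6 counts in parental, 1, 5 and 3 in Ctrl cells and 18, 16 and 7 in p53 KO cells, or 0.284 ± 0.0210 CPM (SD, n = 3), 0.114 ± 0.0623 and 0.520 ± 0.149. The 3 lines did not overlap, in the order p53 KO, parental, Ctrl. The ratio of summed counts scaled to depth was 4.44 for p53 KO over Ctrl (95% exact counting interval 2.13 to 10.4), 2.35 for parental over Ctrl (1.03 to 5.83) and 1.89 for p53 KO over parental (1.09 to 3.37). These intervals cover counting error only and leave out the spread between libraries. In a fit of all 27464 genes with at least 1 count, p53 KO against Ctrl passed (log2 fold change 2.11, SE 0.53, adjusted p = 0.00108), p53 KO against parental did not (0.89, SE 0.45, adjusted p = 0.233) and neither did Ctrl against parental (-1.21, SE 0.60, adjusted p = 0.193). The call of SLFN12L rests on this fit alone, as the main fit did not test the gene. P-values of the 2 fits differed. In p53 KO against parental, SLFN5 had an adjusted p of 0.00295 here and 0.0532 in the main fit. For SLFN11 these were 0.416 and 0.362. Ctrl replicate 1, in which long genes read low, was part of the fit of all genes, and SLFN12L has 13640 exon bases. SLFN12 had 1 count in all, in parental replicate 2. With 0 counts of 73732254 in Ctrl and of 76987005 in p53 KO cells, a level of up to 0.0403 and 0.0393 CPM is allowed, for counting error only. PDE3A and PDE3B, whose products are joined to SLFN12 by small molecules, had 0 counts in every library.

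Of the 5 members, 3 passed the filter. For p53 KO against parental, 0 of the 3 were called, where 9.77% of all genes tested were called higher and 8.36% lower, and 1 of the 3 had an unadjusted p under 0.05 by edgeR and 1 was called by DESeq2, SLFN5 in each case. For p53 KO against Ctrl, all 3 were higher, where 15% of genes were called higher and 14.2% lower. For Ctrl against parental, 2 of the 3 were lower, where 9.69% of genes were called lower and 10.6% higher. Nothing is read from the counts that involve Ctrl cells, since SLFN11 was chosen on those comparisons and SLFN13 was kept only by the lines where it is higher. The comparisons share their libraries.

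**Figure D2:**
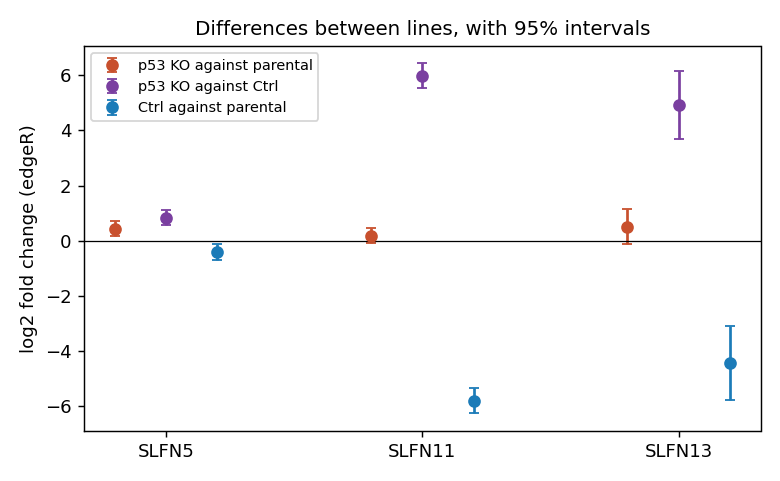
Log2 fold change (vertical axis, edgeR) of SLFN5, SLFN11 and SLFN13 in the 3 comparisons between lines (colours), with 95% intervals of 1.96 SE. The intervals of p53 KO against parental include 0 for SLFN11 and SLFN13; the comparisons of SLFN11 with Ctrl cells chose the gene and are descriptive, and the fitted values of SLFN13 against Ctrl are no bounds and moved to 6.79 and -6.29 without Ctrl replicate 2, which held its only count in that line.

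Per kilobase of exon, levels can be compared between genes. SLFN11 lay at 2.90 CPM per kb in parental, 0.0481 in Ctrl cells and 3.30 in p53 KO cells, and SLFN5 at 2.68, 2.01 and 3.61. In parental and p53 KO cells SLFN13, at 0.0425 and 0.0589, and SLFN12L, at 0.0208 and 0.0381 CPM per kb, were far below both. Of the members' summed level per kb, SLFN11 made up 50.4 to 52.6% in parental, 1.05 to 3.22% in Ctrl cells and 44.8 to 50.1% in p53 KO libraries. SLFN5 made up 96.1 to 98.7% of it in Ctrl libraries. The sum was 5.65 ± 0.241 CPM per kb (SD, n = 3) in parental, 2.07 ± 0.400 in Ctrl cells and 7.01 ± 0.881 in p53 KO cells. Within a library, 0.584 to 0.640 SLFN11 counts were found per SLFN5 count in parental, 0.00599 to 0.0188 in Ctrl cells and 0.467 to 0.581 in p53 KO cells.

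The Schlafen genes share sequence, so reads could be split between them. Of the 75-base stretches of the exons of SLFN13, 4.96% also occur in another gene, and for SLFN11 the share was 7.27%, for SLFN12L 8.09% and for SLFN12 0.129%, with none in SLFN5. SLFN13 counts were 2.06 to 2.58% of SLFN11 counts in parental and 2.35 to 3.02% in p53 KO libraries. The part of such reads in the low SLFN13 and SLFN12L counts was not tested, and how reads with several matches were counted is not given in the sources used here. The exons of SLFN12L also overlap the pseudogene RP11-686D22.10 on the same strand by 560 bases and RP11-686D22.9 on the opposite strand by 370.

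The genes around the cluster were looked at next. Within 500 kb on either side, 15 genes outside the family were tested. Ctrl against parental gave 1 higher and 2 lower among them, p53 KO against parental 2 higher and 1 lower, and p53 KO against Ctrl 4 higher and 1 lower, with median log2 fold changes of 0.07, 0.02 and -0.07. Of all genes tested, 10.6% were higher and 9.69% lower in the first comparison, 9.77% and 8.36% in the second and 15% and 14.2% in the last. With 15 neighbours, nothing is read from how their counts compare with these shares. The lower gene of p53 KO cells was the DNA ligase LIG3 in both comparisons, at -0.25 against parental and -0.34 against Ctrl cells. The nearest tested genes, the long noncoding RNAs RP11-799D4.4 on the SLFN5 side and RP11-1094M14.11 on the other, had log2 fold changes of 0.52 (adjusted p = 0.342) and 0.08 (adjusted p = 0.709) in Ctrl against parental cells. On the SLFN5 side, NLE1, at -231 kb from SLFN11, had a log2 fold change of -0.08 in Ctrl against parental cells (adjusted p = 0.492). On the other side, AP2B1, a subunit of the clathrin adaptor complex that lies 204 kb away, was lower in Ctrl cells (-0.29, adjusted p = 0.0308). The chemokine gene CCL5, 507 kb away, had 20 to 23 counts in parental, 3 to 9 in Ctrl cells and 51 to 61 in p53 KO libraries, and its log2 fold change was -1.96 in Ctrl against parental cells (adjusted p = 0.00863) and 1.39 in p53 KO against parental cells (adjusted p = 0.00459). MMP28, a metalloproteinase, was higher than in parental cells in both Ctrl (1.16) and p53 KO cells (1.84). The numbers of genes called were the same without Ctrl replicate 1.

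**Figure D3:**
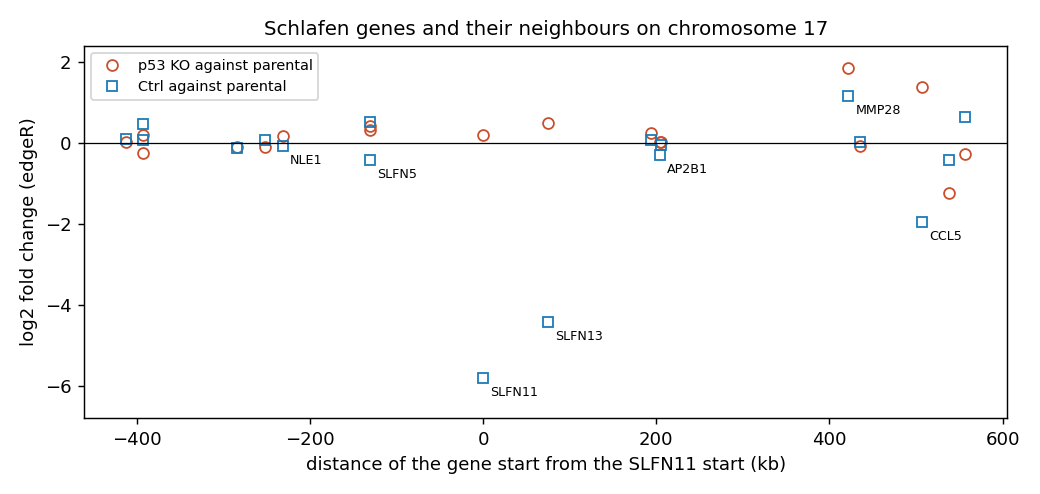
Log2 fold changes (vertical axis, edgeR) of the tested genes in and around the Schlafen cluster by distance of the gene start from that of SLFN11 in kb (horizontal axis), for p53 KO (circles) and Ctrl (squares) against parental cells. SLFN11 is the lowest square, at -5.79, the square of SLFN13 rests on 1 count in Ctrl cells and is no bound (-3.95 to -6.29 with single libraries left out), and NLE1 and AP2B1 lie at -0.08 and -0.29.

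The 5 genes whose log2 CPM over the 9 libraries was most like that of SLFN11 by Pearson's r were RP11-588H23.3 (r = 0.996), EDARADD (0.995), TBC1D1 (0.994), EPB41L2 (0.994) and CCDC120 (0.993). The points share their libraries and the 3 lines, and r is given as a description. RP11-588H23.3 had 151 to 173 counts in parental, 5 to 25 in Ctrl cells and 126 to 209 in p53 KO libraries, and EDARADD, an adaptor of the ectodysplasin receptor, 39 to 50, 1 to 5 and 48 to 70. EPB41L2, a cytoskeletal protein of the band 4.1 family, had 1248 to 1677, 386 to 680 and 1249 to 2019 counts in the same order. Within the family, r with SLFN11 was 0.985 for SLFN13 and 0.836 for SLFN5.

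Interferon-stimulated genes, a class to which several Schlafen genes belong, rose in p53 KO cells. Of 20 genes, 18 were higher and 0 lower against parental cells (median log2 fold change 1.35, against 0.01 over all genes), and 16 were higher and 1 lower against Ctrl cells (median 1.04), the lower being IFI27. Ctrl against parental gave 2 higher, XAF1 (1.45) and OAS1 (1.35), and 2 lower, RSAD2 (-0.81) and DDX58 (-0.35). Over all genes tested, 9.77% were higher and 8.36% lower in the first comparison, 15% and 14.2% in the second and 10.6% and 9.69% in the third. RSAD2, which encodes the antiviral enzyme viperin, had 47 to 62 counts in parental, 21 to 47 in Ctrl cells and 1780 to 2966 in p53 KO libraries. CMPK2, its neighbour in the genome, had 1 to 3, 0 to 3 and 26 to 41 counts. SLFN11, with a log2 fold change of 0.19 between these lines, was not called against parental cells. Of 12 tested genes that carry or regulate the interferon signal, IRF1 and USP18 were higher than in parental cells in both p53 KO (0.38 and 0.35) and Ctrl cells (0.44 and 0.41). Against Ctrl cells 0 of the 12 were called by edgeR's quasi-likelihood test in p53 KO cells, with 1 at an unadjusted p under 0.05 and 1 called by DESeq2. Without Ctrl replicate 1 the interferon-stimulated genes gave 18 higher and 1 lower, 16 and 1, and 2 and 1 in the comparisons in the same order, and 1 of the 12 signalling genes was then lower in p53 KO against either control. In that fit 17% of all genes were higher and 16.9% lower in p53 KO against parental, 17.4% and 17.9% in p53 KO against Ctrl, and 10.6% and 10.5% in Ctrl against parental.

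Genes tied to the silencing of SLFN11, which include the histone methyltransferases EZH1 and EZH2, the DNA methyltransferases and the demethylases KDM6A and KDM6B, gave 0 higher and 3 lower of 13 in Ctrl against parental cells. These were the de novo methyltransferase DNMT3B (-1.14) and the demethylases KDM6A (-0.96) and KDM6B (-0.32). The list holds enzymes that add methyl marks and enzymes that remove them, so its counts give no direction for silencing. Over all genes tested, 10.6% were higher and 9.69% lower in that comparison. EZH2 was measured at 91.4 ± 4.17 CPM (SD, n = 3) in parental, 100 ± 4.65 in Ctrl cells and 78.0 ± 0.763 in p53 KO cells and was lower in p53 KO cells than in parental (-0.23) and Ctrl cells (-0.36). DNMT3A was lower in p53 KO cells against both (-1.18 and -0.78), as was EZH1 (-0.48 and -0.54), the 3 genes of 13 called against parental cells. Against Ctrl cells KDM6A (1.21) and DNMT3B (0.87) were higher in p53 KO cells, where 15% of all genes were higher and 14.2% lower. Without Ctrl replicate 1, p53 KO against parental gave 1 higher and 5 lower, where the shares of all genes rose to 17% and 16.9% from 9.77% and 8.36%, and the counts of the other comparisons were the same.
ETS factors gave 2 higher and 5 lower of 9 in Ctrl against parental cells. One of the family, FLI1, is known to drive SLFN11 in Ewing sarcoma as part of a fusion protein. Over all genes tested, 10.6% were higher and 9.69% lower. FLI1 had 0 counts in every library. ERG (-1.73), ETV5 (-1.16), ETS1 (-0.96), ELK1 (-0.76) and ETV4 (-0.49) were lower and ELF3 (1.12) and ETS2 (0.35) higher. ERG rested on 10 to 16 counts in parental and 1 to 8 in Ctrl libraries. Against Ctrl cells 5 were higher in p53 KO cells (ERG, ELK1, ETV5, ETS1 and ETV4) and 2 lower (ELF3 and ETS2), and against parental cells 1, ETV5, was lower (-0.41). The shares of all genes were 15% higher and 14.2% lower against Ctrl cells, and 9.77% and 8.36% against parental cells. Without Ctrl replicate 1, Ctrl against parental gave 2 higher and 4 lower, and p53 KO against parental gave 1 higher and 2 lower. In that fit 10.6% of all genes were higher and 10.5% lower in the first comparison, and 17% and 16.9% in the second. The counts of p53 KO against Ctrl were the same.

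**Figure D4:**
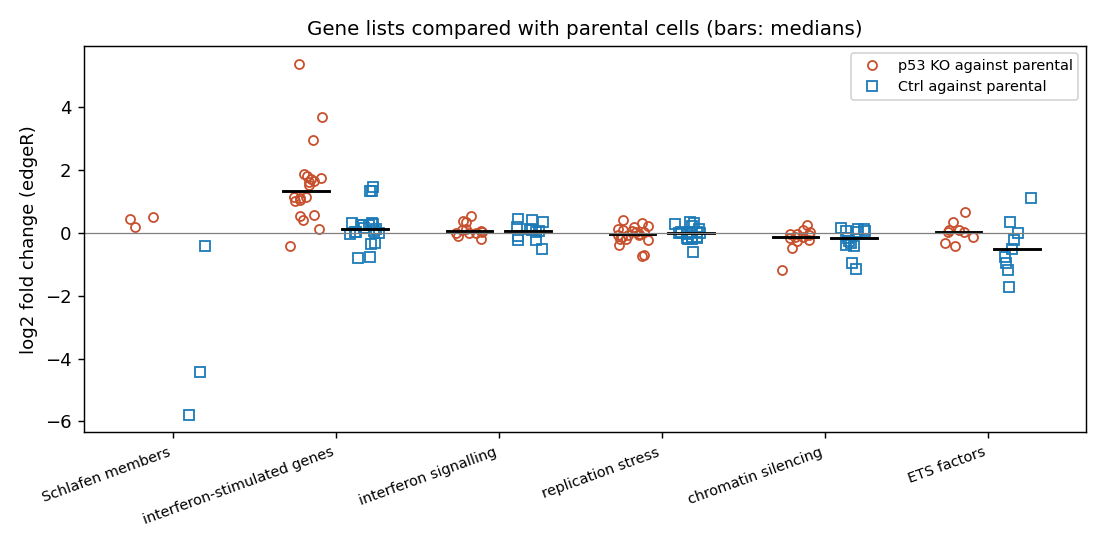
Log2 fold changes (vertical axis, edgeR) of single genes (points) of the Schlafen family and of 5 gene lists (horizontal axis) in p53 KO (circles) and Ctrl cells (squares) against parental cells; black bars are medians of the lists. The interferon-stimulated genes have a median of 1.35 in p53 KO and 0.14 in Ctrl cells, and SLFN11 is the lowest square.

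Genes that act at replication forks or are hit by the drugs tied to SLFN11 were counted in the same way. Of 20 tested replication stress genes, 1 was higher and 2 were lower in p53 KO against parental cells, where 9.77% of all genes were higher and 8.36% lower. The higher gene was the replicative helicase subunit MCM7 (0.42), and the lower were the checkpoint kinase ATR (-0.73) and its activator TOPBP1 (-0.70). Ctrl against parental gave 3 higher and 1 lower, led by CLSPN (-0.61), CDC45 (0.36) and MCM5 (0.29), and p53 KO against Ctrl gave 3 higher and 5 lower, led by TOPBP1 (-0.68), ATR (-0.57) and CDC45 (-0.55). The shares of all genes were 10.6% higher and 9.69% lower in Ctrl against parental, and 15% and 14.2% in p53 KO against Ctrl. Without Ctrl replicate 1, p53 KO against parental gave 3 higher and 7 lower, in a fit where 17% of all genes were higher and 16.9% lower, and p53 KO against Ctrl gave 4 and 5 and Ctrl against parental 3 and 1. Among 7 targets of drugs whose killing SLFN11 is known to raise, TOP1, the topoisomerase hit by camptothecins, was lower in Ctrl than in parental cells (-0.32), and RRM1 and RRM2, the subunits of ribonucleotide reductase, were higher in p53 KO than in Ctrl cells (0.18 each). Against parental cells 0 of the 7 were called in p53 KO cells by edgeR, with 2 at an unadjusted p under 0.05 and 1 called by DESeq2. Of 5 genes of the response to stalled ribosomes, ATF4 was higher in Ctrl than in parental cells (0.53) and lower in p53 KO than in Ctrl cells (-0.39), and EIF2AK4, which encodes the kinase GCN2, was lower in Ctrl than in parental cells (-0.35). Against parental cells 0 of these 5 were called in p53 KO cells by edgeR, with 2 at an unadjusted p under 0.05 and 0 called by DESeq2. Leaving out Ctrl replicate 1 gave 1 higher and 2 lower in p53 KO against parental cells for the 7 drug targets and also for the 5 genes of stalled ribosomes, again with 17% and 16.9% of all genes. In p53 KO against Ctrl the drug targets then gave 1 higher and 1 lower, and the other counts of these lists against Ctrl or of Ctrl against parental were the same.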

How the data were processed

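RNA was sequenced from 3 A431 lines, parental, Ctrl and p53 KO, with 3 libraries each. According to the labels and the study's methods, strand-specific poly(A) libraries were read as 75 bp paired ends, aligned with STAR 2.5.1b to GRCh38 and counted per gene with featureCounts on Ensembl release 85. The authors deposited whole-number counts without normalisation. The strand setting of the counting is not given in the sources used here.

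The analysis used edgeR 4.0.16 in R 4.3.3. Genes were filtered by group with filterByExpr (minimum count 10), which left 14513, and scaled by TMM. A model with 1 mean per line was fitted to all 9 libraries, and lines were compared with the quasi-likelihood F test, its p-values adjusted by Benjamini-Hochberg over all genes tested. SEs follow from the F statistic. In exact permutation tests, 3 libraries against 3 cannot go below p = 0.1. Levels per kb used exon lengths of GENCODE release 44, whose build is the authors' but whose release differs. DESeq2 1.42.0, its size factors, other filters, a replicate block, fits of 2 lines, a fold threshold and the leaving out of each library were alternatives; counts in the gene lists and among neighbours without Ctrl replicate 1 were added after seeing the data. Named genes were the members, up to 3 called genes of the largest change per list and comparison, or all called in short lists, neighbours, and the 5 genes most like SLFN11; FLI1, IFI27, EZH2's levels and further called genes of the lists were named after their values were seen. The members and lists were chosen with earlier results of these data known. Methods were tested on simulated data with 200 of 14513 genes changed by a log2 fold of 2. False calls made up 5.39 to 5.83% of edgeR's calls and 10.6 to 15.7% of DESeq2's, at an adjusted p of at most 0.05. The check of the targeted gene and a few listed genes are not reported here. Promoters are RefSeq's on GRCh38.p14. Figures were drawn with matplotlib 3.10.9.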

Additional observations from a re-analysis of the deposited data

How the results depend on the processing

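SLFN11 in p53 KO against parental cells was not called under any of 14 alternatives (log2 fold change 0.13 to 0.29, adjusted p 0.129 to 0.630). Its descriptive values ranged from 5.67 to 6.47 for p53 KO against Ctrl and from -6.28 to -5.48 for Ctrl against parental, 6.47 and -6.28 coming without Ctrl replicate 2, which held 13 of the 23 counts. SLFN5 in p53 KO against Ctrl was called under all 15 (0.70 to 0.93, highest adjusted p 0.00678). The fitted values of SLFN13 against Ctrl, which rest on 1 count in Ctrl cells and carry no test, ranged from 4.45 to 6.79 for p53 KO against Ctrl and from -6.29 to -3.95 for Ctrl against parental, 6.79 and -6.29 coming without that library. SLFN5 in p53 KO against parental kept its direction (0.31 to 0.52) and passed under 5 of 15, with DESeq2 (adjusted p = 0.0315), no filter (0.00295), only the 2 lines compared (0.00362), and without p53 KO replicate 3 (0.0499) or Ctrl replicate 1 (0.0032). In Ctrl against parental it passed with DESeq2 (0.0372) and no filter (0.00567). At least 10 counts in every library left SLFN11 and SLFN13 out.

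Over all genes, 2631 were called in p53 KO against parental, 4240 in p53 KO against Ctrl and 2943 in Ctrl against parental. Asking for a log2 fold change past 1.5 left 283, 477 and 281. Fits of only the 2 lines compared called 4852 in p53 KO against parental and 1905 in Ctrl against parental. Leaving out 1 library gave 1554 (without parental replicate 1) to 4920 (without Ctrl replicate 1), 3073 to 5123 and 1391 (without parental replicate 1) to 4384 (without Ctrl replicate 3). The cause was not tested. Same-numbered libraries did not deviate together from the means of their lines (r from -0.35 to 0.04 over 9 pairs, against -0.22 to 0.39 over 18 pairs of other numbers). With 3 libraries per line this cannot show whether libraries of 1 number shared a culture or a batch. With the replicate block 1757, 3406 and 1691 genes were called, SLFN5 in p53 KO against parental had a log2 fold change of 0.43 (adjusted p = 0.118) and in p53 KO against Ctrl of 0.85 (adjusted p = 0.00575). Depth limits SLFN12, SLFN12L and SLFN13, with at most 18 counts per library.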
